A study of Caenorhabditis elegans with 6 samples.

Results

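The genes described here are the 10 Wnt ligand and receptor genes of C. elegans, taken by symbol from a list of 10 names that had been drawn up with earlier results of these data known. They comprise 5 Wnt ligands, lin-44, egl-20, cwn-1, cwn-2 and mom-2, and 4 Frizzled receptors, lin-17, mig-1, cfz-2 and mom-5, together with the ROR receptor tyrosine kinase cam-1. Each symbol matched a single WormBase identifier among the 46726 gene identifiers of the count files, so 10 of 10 members were found. They were read in 6 polyA RNA-seq libraries of sorted touch receptor neurons from L4 larvae, 3 from mec-8(e398) mutants and 3 from wild-type animals, which the labels give as strain N2. According to the study's methods both genotypes carried a mec-4p::GFP transgene, which marks the touch neurons ALM, PLM, AVM and PVM, and GFP-positive cells were pooled from large synchronized populations, so no library comes from a single animal or a single touch neuron class. The gene mec-8 encodes an RNA-binding protein that acts in splicing and is needed for touch sensitivity.

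Wnt proteins are secreted, lipid-modified ligands that act over a distance on Frizzled receptors and on co-receptors such as ROR kinases. Inside the receiving cell Dishevelled passes the signal on, either to a beta-catenin and a TCF factor or to the cytoskeleton. In C. elegans several Wnts are made in the posterior body, and they tell the touch neurons which way to migrate and to extend their processes: PLM polarity is known to need LIN-44 and its receptor LIN-17, and ALM polarity the Wnts CWN-1 and EGL-20. Touch neurons are therefore known as cells that respond to Wnts, while muscle, hypodermis and other cells are known as their sources. In sorted cells a lower count can come from fewer cells of a type or from less RNA per cell, and the 2 cannot be told apart.

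Reads counted on genes ranged from 22705762 to 33094142 in the mec-8 libraries and from 15334872 to 27882591 in the wild-type libraries. Levels are given as CPM, counts scaled to the same total of reads on genes in each library. A gene with 3 counts, the upper limit that a count of 0 allows, stood at 0.0907 to 0.196 CPM. This limit and all statements on depth cover counting error only. In wild-type replicate 1, 11.1% of uniquely mapped reads lay on several genes and were not counted, against 2.62% to 3.04% in the other 5 libraries. This library also had 3.57% of uniquely mapped reads on no gene, against 0.385% to 1.44% in the other 5. It had 70024247 alignments that were not unique, against 1922629 to 11988379. The libraries also differed in their makeup. The 10 touch neuron genes named by the study, all counted in each library, summed to 11523, 1026 and 1462 CPM in mec-8 replicates 1, 2 and 3, against 14706, 1620 and 4833 CPM for wild-type replicates 1, 2 and 3. Replicate 1 was the highest library of each genotype, and the genotypes overlapped. Markers of other tissues were present in every library: the summed level of 6 body wall muscle genes lay between 4147 and 34954 CPM in mec-8 libraries and between 8565 and 80024 CPM in wild-type libraries, and of 6 intestinal genes between 637 and 3824 CPM in mec-8 libraries and between 40.4 and 391 CPM in wild-type libraries. The intestinal sums did not overlap between the genotypes. The part that these differences in makeup play in the levels below was not tested.

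Levels of different genes were compared only as CPM per kilobase of exon, since a longer transcript yields more reads. On that scale, and by the mean of the log2 values over the 6 libraries, the order from high to low was mom-2, lin-44, mig-1, cam-1, lin-17, cwn-1, cwn-2, mom-5, cfz-2 and egl-20. Of the 9 steps between neighbours in this order, 0 were larger than the spread of that step over the 6 libraries. The largest step, from cwn-1 to cwn-2, was 2.72 on the log2 scale with an SD of 2.77 and was found in 5 of 6 libraries. A library at 0 entered the log2 mean through the added prior count of 0.5 alone, so the lower places depend on it. By the plain mean of CPM per kilobase, egl-20 (0.567) stood above cfz-2 (0.347). The members nevertheless fell into those counted everywhere and those that were not. The 5 genes lin-44, mom-2, lin-17, mig-1 and cam-1 had at least 86 counts in each of the 6 libraries. The other 5, egl-20, cwn-1, cwn-2, cfz-2 and mom-5, were at 0 in at least 1 library each. All 5 of them were at 0 in mec-8 replicate 3, which also had the fewest genes detected, 13613 against 13747 to 19659 in the other 5 libraries.

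**Figure D1:**
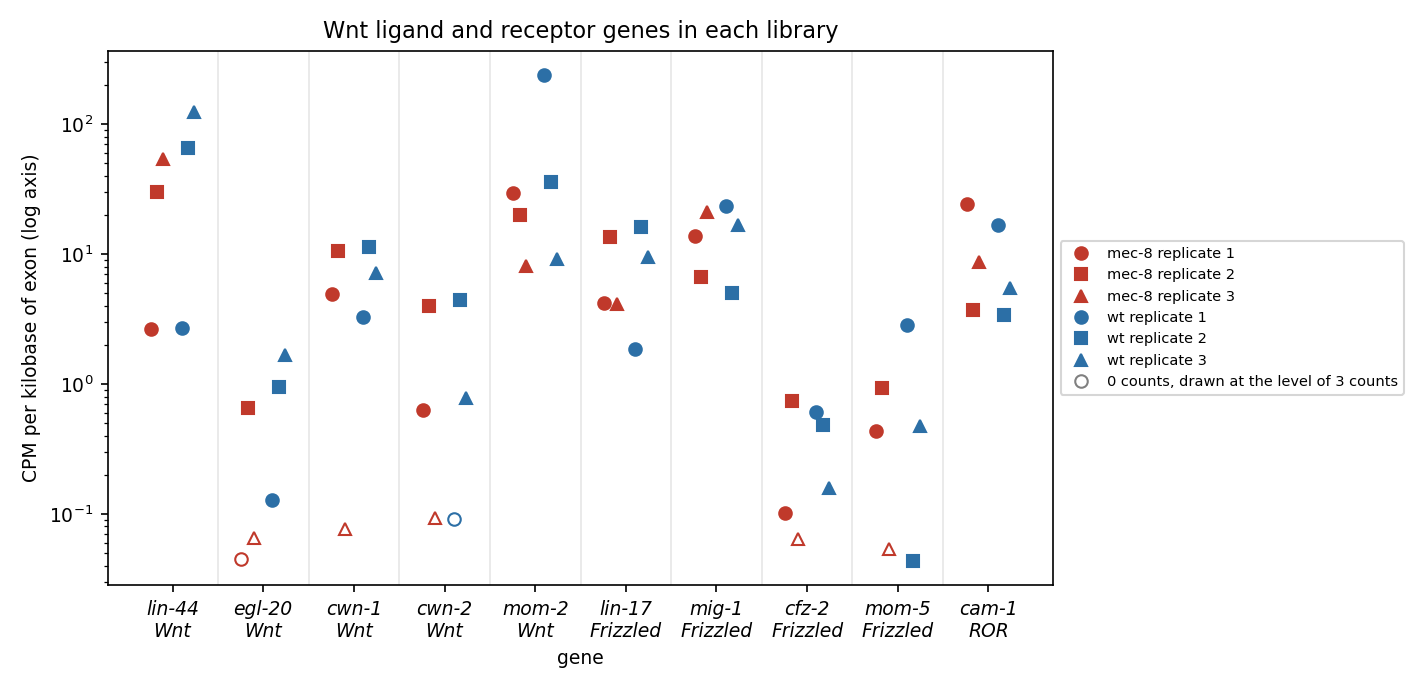
Level of each Wnt ligand and receptor gene in each library, in CPM per kilobase of exon on a log axis, with mec-8 libraries left of wild-type libraries for each gene. Each point is 1 library, its shape gives the replicate number, and open points are libraries with 0 counts, drawn at the level of 3 counts. For each of the 10 genes the points of both genotypes overlap, and lin-44 is low in replicate 1 of both genotypes.

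Among the ligands, lin-44 was the one that varied most among the genes counted everywhere. LIN-44 is the Wnt of the tail tip hypodermis, which orients PLM. Its 1378 exon bases are spread between positions 4126056 and 4129310 of chromosome I, plus strand (build WBcel235, as for all positions here). It had 120, 1254 and 1696 counts in mec-8 replicates 1, 2 and 3, or 3.63, 41.5 and 74.7 CPM, against 86, 2507 and 2617 counts in wild-type replicates 1, 2 and 3, or 3.71, 89.9 and 171 CPM. Replicate 1 of each genotype was low and the other libraries high, a 47.1-fold range, and the genotypes overlapped. The mean was 39.9 ± 35.6 CPM in mec-8 mutants and 88.1 ± 83.5 CPM in wild type (SD, n = 3 each). The 2 libraries with the least lin-44 were those with the most touch neuron counts. The summed level of 6 hypodermal genes was 64.2, 250.8 and 55.8 CPM in mec-8 replicates 1, 2 and 3, against 212, 491 and 208 CPM in wild-type replicates 1, 2 and 3. Of the 6 genes, 2 were at 0 in mec-8 replicate 3 (dpy-7 and nhr-25), 3 were at 0 in wild-type replicate 1 (dpy-7, nhr-25 and rol-6) and 0 in the other 4 libraries. clec-1 and elt-3 stood higher in wild-type replicate 1, at 190.6 and 15.6 CPM, than in any other library. The part of hypodermal RNA in the lin-44 level was not tested.

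The other abundant ligand was mom-2, the Wnt of the early embryo that polarizes the endoderm precursor. Its 1537 exon bases are found at 8355988 to 8358185 of chromosome V, plus strand. The counts of mom-2 were 1501, 927 and 281 in mec-8 replicates 1, 2 and 3, or 45.4, 30.7 and 12.4 CPM, against 8496, 1540 and 217 in wild-type replicates 1, 2 and 3, or 367, 55.2 and 14.2 CPM. A single library, wild-type replicate 1, stood far above the rest, while wild-type replicate 3 lay among the mec-8 libraries. The mean was 29.5 ± 16.5 CPM in mec-8 mutants and 145 ± 193 CPM in wild type (SD, n = 3 each). The germline genes nos-2 and pie-1, regulators of the germline precursors, had the same highest library, as did pgl-1. The other germline markers did not: glh-1 and gld-1 were highest in wild-type replicate 3, and fbf-2 in mec-8 replicate 2. nos-2 had 59.95, 2.15 and 9.65 CPM in mec-8 replicates 1, 2 and 3, against 500.2, 0.251 and 1.43 CPM in wild-type replicates 1, 2 and 3. The summed level of all 6 germline markers, none of them at 0 in any library, was not highest there: it ran from 685 to 2861 CPM in mec-8 libraries and from 981 to 3567 CPM in wild-type libraries, with 2802 CPM in wild-type replicate 1. Their part in the mom-2 level was not tested.

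The Wnts that orient ALM had lower mean levels per kilobase over the 6 libraries, though cwn-1 exceeded lin-44 in replicate 1 of both genotypes. cwn-1, a Wnt of the posterior body wall muscle, has 1726 exon bases at 130983 to 133598 of chromosome II, minus strand. It had 282, 549 and 0 counts in mec-8 replicates 1, 2 and 3, or 8.52, 18.2 and 0 CPM, against 132, 550 and 188 counts in wild-type replicates 1, 2 and 3, or 5.70, 19.7 and 12.3 CPM. The mec-8 replicate 3 library, where a count of 0 allows up to 0.132 CPM, stood apart from the other libraries, which were within the same range in both genotypes. The muscle transcription factor genes hlh-1 and unc-120 were also at 0 in that library, whereas the abundant sarcomere genes pat-10 and unc-15 were counted there at 2316 and 699 CPM. egl-20, a Wnt made by cells around the rectum and anus, has 2019 exon bases at 9812357 to 9815532 of chromosome IV, minus strand. It had 0, 40 and 0 counts in mec-8 replicates 1, 2 and 3, or 0, 1.32 and 0 CPM, against 6, 53 and 52 counts in wild-type replicates 1, 2 and 3, or 0.259, 1.90 and 3.39 CPM. Thus 2 of the 3 mec-8 libraries held no read of egl-20 and each wild-type library held some, but mec-8 replicate 2 exceeded wild-type replicate 1.

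cwn-2, a Wnt known for anterior neurite placement and for acting through CAM-1 at the neuromuscular junction, has 1427 exon bases at 10067816 to 10070251 of chromosome IV, plus strand. Its counts were 30, 172 and 0 in mec-8 replicates 1, 2 and 3, or 0.907, 5.69 and 0 CPM, against 0, 177 and 17 in wild-type replicates 1, 2 and 3, or 0, 6.35 and 1.11 CPM. Replicate 2 was the highest library in each genotype, and each genotype had 1 library at 0. The gene shares 50 exon bases with W01B6.3 on the other strand, which had 10 counts in the 6 libraries together. How many reads were left out there as lying on several genes is not known. Summed per kilobase, the 5 ligands came to between 37.7 and 65.2 CPM in mec-8 libraries and between 118 and 245 CPM in wild-type libraries. Which ligand led differed between libraries: mom-2 took 78.2% of this sum in mec-8 replicate 1 and 97.5% in wild-type replicate 1, and lin-44 led the other 4 libraries with 46.2% to 87.1%. The ligand sums did not overlap between the genotypes, while each of the 5 genes alone did. For single genes, non-overlap was found for 6.99% of all genes tested, and among the marker lists for 5 of 6 intestinal genes, which were higher in the mec-8 libraries. No such share was worked out for sums of 5 genes, so these values are no background for the ligand sum. The sum is a description with no test, and the part of library makeup in it was not tested.

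Among the receptors, cam-1 varied over a 7.09-fold range. CAM-1 is the only ROR kinase of the worm, binds Wnts through its extracellular cysteine-rich domain and is known in cell migration and axon guidance. The gene has 3321 exon bases at 9295915 to 9310304 of chromosome II, minus strand, and an annotated ncRNA within it shares 0 exon bases with it. It had 2658, 375 and 658 counts in mec-8 replicates 1, 2 and 3, or 80.3, 12.4 and 28.98 CPM, against 1276, 316 and 278 counts in wild-type replicates 1, 2 and 3, or 55.1, 11.3 and 18.1 CPM. Replicate 1 was the highest and replicate 2 the lowest in each genotype, so the libraries with most touch neuron counts also held most cam-1. These 2 libraries also had the highest summed level of 6 genes of all neurons, 475 CPM in mec-8 and 170 CPM in wild type. The other libraries had 60.3 to 116 CPM of that sum, with mec-8 replicate 3 the lowest. The part of either cell group in the cam-1 level was not tested. The mean was 40.6 ± 35.4 CPM in mec-8 mutants and 28.2 ± 23.6 CPM in wild type (SD, n = 3 each), a difference well within the spread.

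mig-1, a Frizzled receptor known from the migration of the Q neuroblasts, whose descendants include AVM and PVM, was the steadiest member. Its 1829 exon bases are found at 948569 to 957456 of chromosome I, minus strand. Its counts were 829, 370 and 869 in mec-8 replicates 1, 2 and 3, or 25.05, 12.2 and 38.3 CPM, against 986, 257 and 467 in wild-type replicates 1, 2 and 3, or 42.6, 9.22 and 30.5 CPM. These values spanned a 4.62-fold range, and replicate 2 was the lowest library of each genotype. The mean was 25.2 ± 13.0 CPM in mec-8 mutants and 27.4 ± 16.9 CPM in wild type (SD, n = 3 each). The SD of its log2 CPM over the 6 libraries, 0.90, stood at percentile 21.6 among the 14614 genes tested, whose median was 1.63. By the same measure cam-1 stood at percentile 34.5, lin-17 at 36.6, mom-2 at 53.0 and lin-44 at 63.3. The 5 members with libraries at 0 stood between percentiles 61.7 and 87.4.

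lin-17, the Frizzled receptor through which LIN-44 sets PLM polarity, ran the other way. Its 2204 exon bases are found at 2706883 to 2717549 of chromosome I, plus strand. It had 304, 905 and 205 counts in mec-8 replicates 1, 2 and 3, or 9.19, 29.9 and 9.03 CPM, against 94, 988 and 318 counts in wild-type replicates 1, 2 and 3, or 4.06, 35.4 and 20.7 CPM. Replicate 2 was the highest library of each genotype, and the wild-type library with the most touch neuron counts had the least lin-17 of the 6. The mean was 16.05 ± 12.03 CPM in mec-8 mutants and 20.1 ± 15.7 CPM in wild type (SD, n = 3 each). Per kilobase, mig-1 exceeded lin-17 in replicates 1 and 3 of both genotypes, and lin-17 exceeded mig-1 in replicate 2 of both, by a ratio of 2.03 in mec-8 and 3.19 in wild type. The summed level of the 4 Frizzled genes therefore varied less than its parts, from 18.4 to 25.02 CPM per kilobase in mec-8 libraries and from 21.6 to 28.6 in wild-type libraries, a 1.55-fold range over the 6 libraries.

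The remaining Frizzled genes were among the scarcer members, each at 0 in mec-8 replicate 3. cfz-2, a receptor known in anterior cell migration, has 2075 exon bases at 3441504 to 3444877 of chromosome V, minus strand. It had 7, 46 and 0 counts in mec-8 replicates 1, 2 and 3, or 0.212, 1.52 and 0 CPM, against 29, 28 and 5 counts in wild-type replicates 1, 2 and 3, or 1.25, 1.004 and 0.326 CPM. mom-5, the Frizzled that receives MOM-2 in the embryo, has 2483 exon bases at 9965574 to 9970037 of chromosome I, plus strand. It had 36, 70 and 0 counts in mec-8 replicates 1, 2 and 3, or 1.09, 2.32 and 0 CPM, against 164, 3 and 18 counts in wild-type replicates 1, 2 and 3, or 7.08, 0.108 and 1.17 CPM. The highest mom-5 library was wild-type replicate 1, as for mom-2. mom-5 shares 66 exon bases with tsp-7, a gene on the other strand with 1589 counts in all, and reads there cannot be told apart, since the strand setting of the counting is not given in the sources used here.

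**Figure D2:**
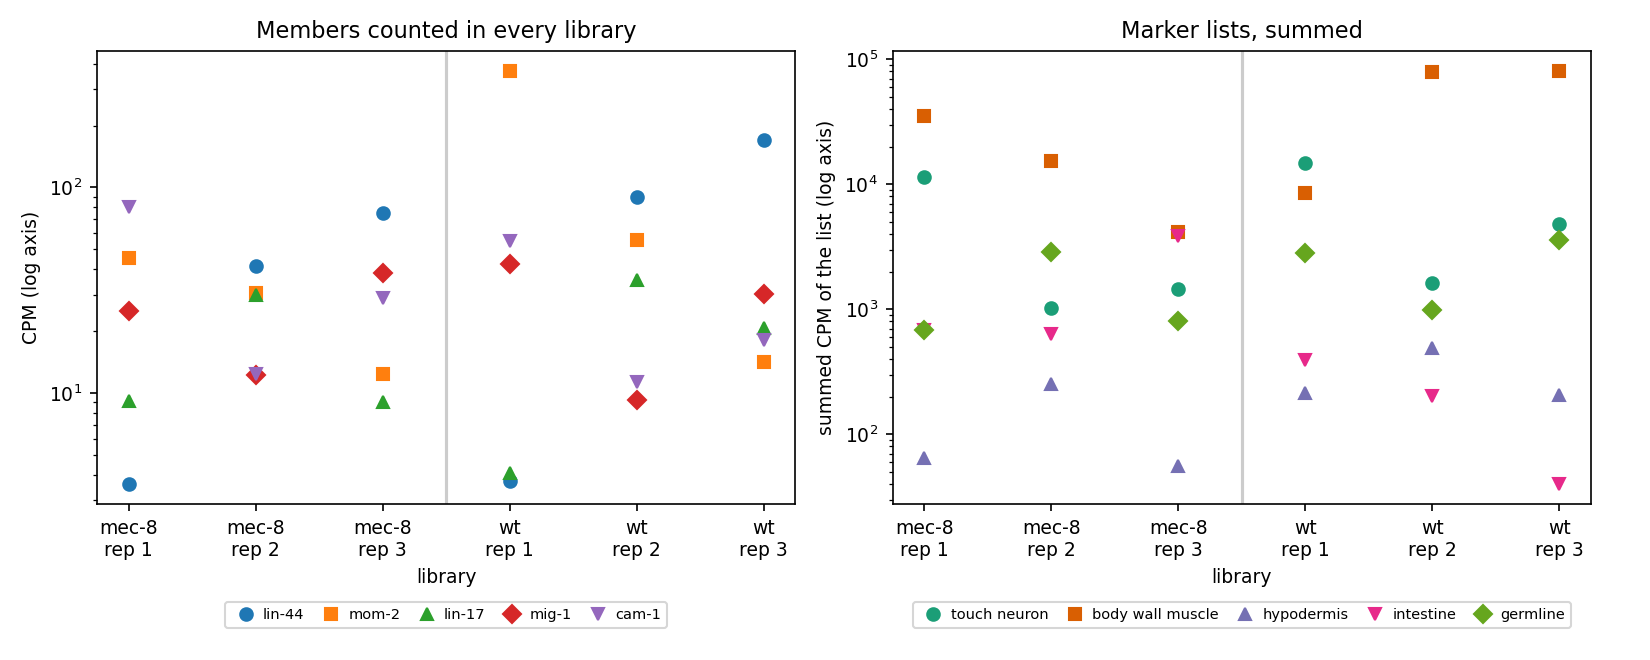
Left, CPM of the 5 members counted in each library, and right, summed CPM of marker lists for touch neurons, body wall muscle, hypodermis, intestine and germline, each on a log axis, with the 3 mec-8 libraries left of the 3 wild-type libraries. Each point is 1 gene or 1 list in 1 library. The touch neuron sum is highest in replicate 1 of each genotype, where cam-1 is high and lin-44 is low.

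The genotypes were compared to ask whether loss of mec-8 function changed the level of any Wnt ligand or receptor. By fitted log2 fold change of mec-8 over wild type, 9 of the 10 members were lower in mec-8 mutants and cam-1 was higher, but 0 of the 10 passed the test. Across the 14614 genes tested, 49.5% had a log2 fold change below 0. The quasi-likelihood test of edgeR, adjusted by Benjamini and Hochberg's method, called 0% of all genes at an adjusted p under 0.05, and DESeq2 called 0.278% of those with an adjusted p, none of them a member. At an unadjusted p under 0.05 edgeR had 3.22% of all genes and 0 of the 10 members. The libraries of the genotypes did not overlap for 6.99% of all genes and for 0 of the 10 members. The median log2 fold change of the 10 members was -0.69, that of the 5 ligands -1.30 and that of the 4 Frizzled genes -0.59, beside a median of 0.01 for all genes tested. These medians describe genes read from the same libraries, 5 of them at 0 in mec-8 replicate 3, and they were not tested. Marker lists of other tissues also had medians away from 0: the median log2 fold change was -2.08 for body wall muscle (5 of 6 genes lower), -1.72 for hypodermis (5 of 6 lower), -1.68 for pharynx (5 of 5 lower), -1.57 for seam cells (2 of 3 lower) and -0.87 for germline (6 of 6 lower). It was 3.28 for intestine (6 of 6 higher) and -0.05 for touch neurons (5 of 10 lower). None of these marker genes was called in edgeR's test, and their part in the medians of the members was not tested.

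**Figure D3:**
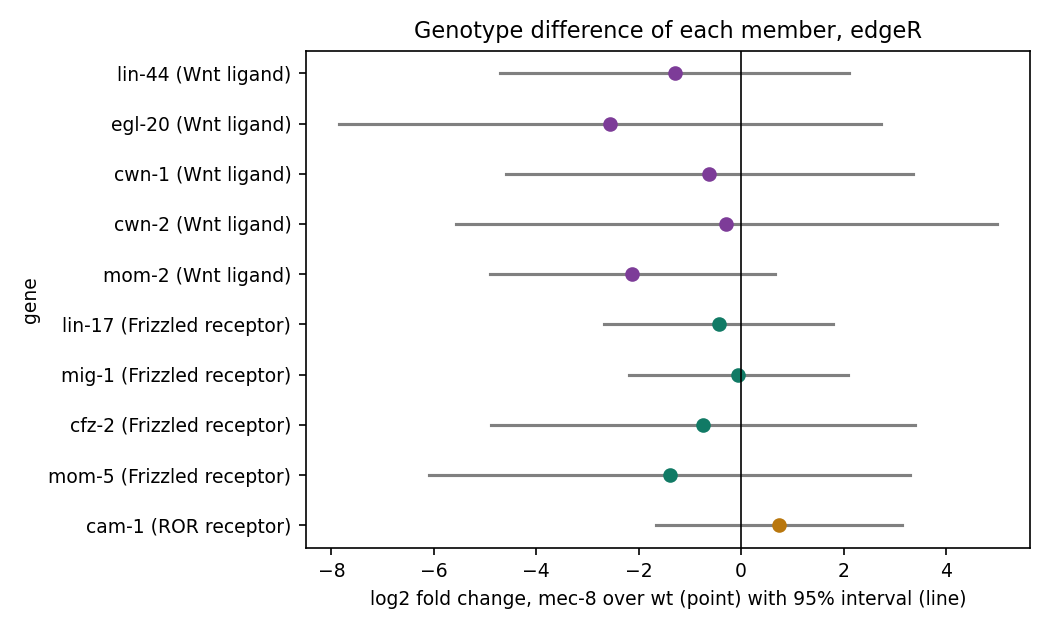
Log2 fold change of mec-8 over wild type for each Wnt ligand and receptor gene (point) with its 95% interval (line), from edgeR. The interval of each of the 10 genes crosses 0, and mom-2, with an interval from -4.91 to 0.66, has the lowest upper end.

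The member nearest to a call was mom-2, at -2.13 on the log2 scale, with a standard error of 1.19 and a 95% interval of -4.91 to 0.66 (adjusted p = 1.0 and unadjusted p = 0.115 in edgeR's test). Without wild-type replicate 1 it was -0.06, so the difference rested on this library, and without wild-type replicate 3 its unadjusted p in edgeR's test was 0.0488 (adjusted p = 0.584). For lin-44 the value was -1.30 with a standard error of 1.45 (adjusted p = 1.0 in edgeR's test), and it became -0.18 without wild-type replicate 3 and -2.62 without mec-8 replicate 3. For egl-20 the log2 fold change was -2.56 with a standard error of 2.26. On the mec-8 side this value rests on replicate 2, since the other 2 mec-8 libraries were at 0. Its unadjusted p in edgeR's test was 0.293. cam-1 was the only member with a positive value, 0.74 (standard error 1.03, 95% interval -1.67 to 3.14), which became -0.55 without mec-8 replicate 1. mig-1 had the value nearest to 0, -0.05, with a 95% interval of -2.19 to 2.09 that admits large changes in either direction, so a high p does not show equal levels. lin-17 stood at -0.43 with an interval of -2.67 to 1.80. The genes cwn-1, cwn-2, cfz-2 and mom-5, each at 0 in mec-8 replicate 3, had log2 fold changes of -0.62, -0.29, -0.75 and -1.39. Their standard errors were 1.69 to 2.25. The sign of cwn-2 turned without mec-8 replicate 3, to 0.11, or without wild-type replicate 2, to 1.37, and that of mom-5 turned to 0.38 without wild-type replicate 1.

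The rest of the Wnt pathway was read from a list of 33 genes, of which 32 were matched by symbol and tested. In edgeR's test 0 of the 32 were called in either direction, 0 had an unadjusted p under 0.05, and 22 had a log2 fold change below 0. Of the genes for Wnt secretion, 6 of 8 were counted in each library. Among them mig-14, the Wntless sorting receptor, had 8.12 ± 3.72 CPM in mec-8 mutants and 10.955 ± 6.03 CPM in wild type, and the retromer gene vps-35 had 46.6 ± 7.71 CPM in mec-8 mutants and 55.96 ± 21.4 CPM in wild type (SD, n = 3 each). The lowest value of the list was that of mom-1, the Porcupine acyltransferase that attaches the lipid to Wnts, at -3.24 (standard error 2.13). mom-1 had 0, 1.22 and 0 CPM in mec-8 replicates 1, 2 and 3, against 5.53, 2.15 and 1.76 CPM in wild-type replicates 1, 2 and 3. It was the only gene of the 32 whose genotypes did not overlap, where 6.99% of all genes did not overlap. Next lowest was sfrp-1, a secreted Frizzled-related protein that binds Wnts outside the cell, at -2.51 (standard error 1.88), with 1.12, 6.98 and 0 CPM in mec-8 replicates 1, 2 and 3, against 1.94, 36.1 and 5.09 CPM in wild-type replicates 1, 2 and 3.

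At the other end of the list, tap-1, related to the TAB subunit of the TAK1 kinase complex, had a log2 fold change of 1.75 (standard error 0.897, unadjusted p = 0.0905 in edgeR's test) with 42.3, 56.2 and 143.8 CPM in mec-8 replicates 1, 2 and 3, against 11.1, 58.0 and 14.1 CPM in wild-type replicates 1, 2 and 3. The genotypes overlapped in wild-type replicate 2. pry-1, the Axin of the beta-catenin destruction complex, followed at 1.09 (standard error 1.20). The 3 Dishevelled genes were counted in each library, with dsh-1 at 33.2 ± 5.06 CPM in mec-8 mutants and 34.0 ± 22.1 CPM in wild type (SD, n = 3 each). The other Dishevelled genes varied more. dsh-2 had 23.2 ± 19.8 CPM in mec-8 mutants and 55.2 ± 54.8 CPM in wild type (SD, n = 3 each). mig-5 had 152 ± 133 CPM in mec-8 mutants and 180 ± 195 CPM in wild type (SD, n = 3 each). The beta-catenin gene bar-1, which acts in the canonical pathway, was even among the mec-8 libraries, 8.22 ± 0.119 CPM, against 5.58 ± 2.91 CPM in wild type (SD, n = 3 each). The Hox genes lin-39, mab-5 and egl-5, known targets of Wnt signalling in the migrating Q cells and the tail, were low, with 11.8 CPM of lin-39 in mec-8 replicate 1 as the highest value of the 3 genes.

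**Figure D4:**
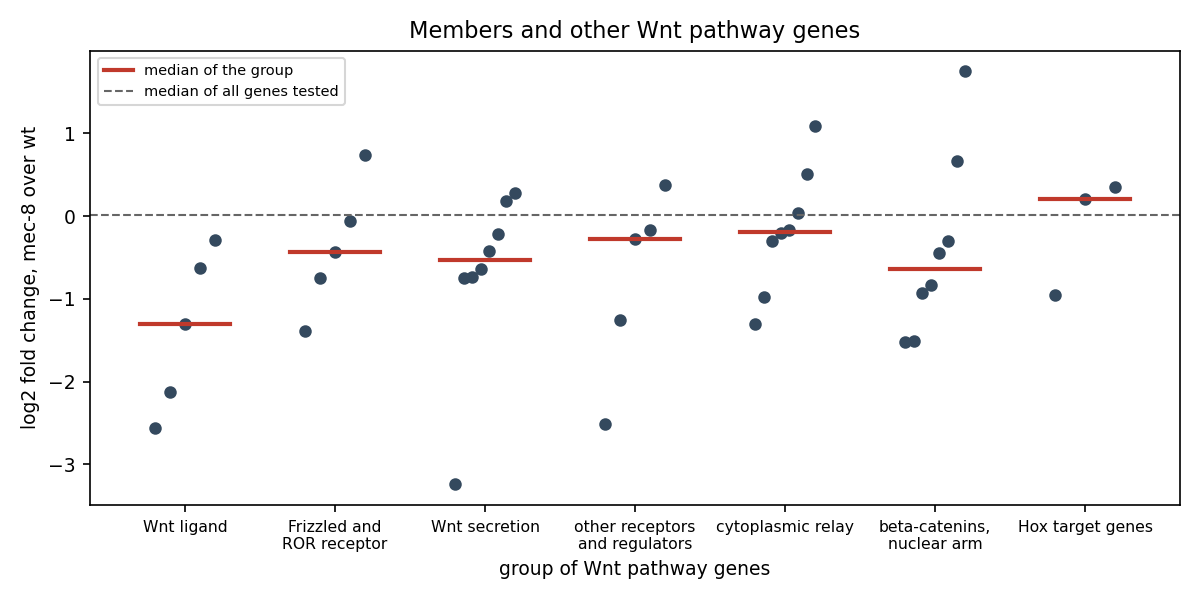
Log2 fold change of mec-8 over wild type for the 10 members, as ligands and as receptors, and for the 32 other Wnt pathway genes by group. Each point is 1 gene, red bars are group medians, and the dashed line is the median of all genes tested, 0.01. None of these genes passed the test.

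Genes with a profile over the 6 libraries most like that of a member were sought for mom-2 and mig-1. These were the ligand and the receptor with the highest mean log2 level per kilobase. mom-2 exceeded lin-44 per kilobase in only 2 of 6 libraries, so its place above lin-44 was not beyond the spread. Likeness was the root-mean-square distance between log2 CPM profiles after each gene's own mean had been taken off, over genes with a mean of at least 5 log2 CPM. For mom-2 the nearest of 3154 genes were nlp-50, a neuropeptide-like gene, at 0.42, rnr-2, the small subunit of ribonucleotide reductase, at 0.52, and nasp-2 at 0.65, where the median gene was at 1.77. All 3 were highest in wild-type replicate 1, with 349, 456 and 449 CPM. For mig-1 the nearest of 3155 genes were pod-2, the acetyl-CoA carboxylase, at 0.42, Y57E12AL.1 at 0.44 and let-767, a steroid dehydrogenase, at 0.46, with a median of 1.30. Among the 10 pairs of the 5 members counted in each library, the closest was mig-1 and cam-1, at 0.77, and their ratio per kilobase stayed between 0.566 and 3.05. The most distant of these pairs was lin-44 and mom-2, at 3.56, with lin-44 over mom-2 between 0.0892 and 6.73 in mec-8 libraries and between 0.0113 and 13.5 in wild-type libraries. The profiles share libraries and depth, and with 6 points they are a description only.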

How the data were processed

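The authors sequenced polyA RNA of sorted cells as paired 150 bp reads, mapped them with STAR to WBcel235 and deposited raw HTSeq counts of reads per gene (tools per the labels and the study's methods). The counting version, annotation release and strand setting are not given in the sources used here, so overlapping and antisense genes are uncertain. Reads on no gene, 0.385% to 3.57% of the uniquely mapped reads, and reads on several genes, 2.62% to 11.1%, were left out. Positions, symbols and merged exon lengths were taken from a later Ensembl annotation of the same build, which held 46364 of the 46726 identifiers.

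CPM were computed with the reads on genes as the total, and log2 CPM uses a prior count of 0.5. The genotypes were compared in edgeR 4.0.16 (R 4.3.3) over all genes, with TMM normalization, filterByExpr, the quasi-likelihood test, Benjamini-Hochberg adjustment and a threshold of 0.05. Of the 10 members, 10 passed the filter. Standard errors were worked back from each fold change and its F statistic, and 95% intervals use them with the test's degrees of freedom. The alternatives tried were scaling by library size only or by upper quartile, 2 other filters, a replicate block, DESeq2 1.42.0, and leaving out each library in turn. The code was tested on simulated data with far less spread between replicates than here, where the common biological coefficient of variation was 1.201. That check therefore does not show what size of change could be detected in these libraries. Replicates are the study's biological replicates as numbered in the labels.

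The members and all gene lists were chosen with earlier results of these data known. Named genes are the 10 members, and the 2 highest and 2 lowest log2 fold changes of the pathway list (no gene there had an unadjusted p under 0.05). The 3 genes most like the ligand and the receptor with the highest mean log2 level per kilobase were also named. mig-14, vps-35, dsh-1, dsh-2, mig-5, bar-1, the Hox genes and the named markers were added after their values were seen. The symbols plr-1 (pathway list) and elt-5 (seam cell list) were not matched. Summed over the other marker lists, 6 genes of all neurons had 60.3 to 475 CPM in mec-8 libraries and 97.5 to 170 CPM in wild-type libraries, 5 pharynx genes 119 to 729 CPM in mec-8 and 213 to 1467 CPM in wild-type libraries, and 3 seam cell genes 15.0 to 119 CPM in mec-8 and 49.8 to 214 CPM in wild-type libraries.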

Additional observations from a re-analysis of the deposited data

How the results depend on the processing

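Among the refits of single members, 106 kept the sign of the log2 fold change, 9 reversed it and 0 brought a call. DESeq2 called 44 of all genes, against 0 in edgeR, and 0 of the 10 members. With mig-1 near 0, its log2 fold change turned to 0.0343 when at least 10 counts were required in every library, a filter that left only 5 members to test, and to 0.0215 with the replicate block. Leaving out each library in turn gave -0.52 to 0.33 for mig-1, -2.10 to 1.37 for cwn-2, -1.996 to 0.38 for mom-5 and -0.55 to 1.49 for cam-1, while the other 6 members kept their sign with wide ranges: -2.62 to -0.18 for lin-44, -8.52 to -1.62 for egl-20, -1.26 to -0.14 for cwn-1, -3.05 to -0.06 for mom-2, -0.99 to -0.05 for lin-17 and -2.62 to -0.29 for cfz-2. The -8.52 of egl-20 leaves out the only mec-8 library with reads of it, so it sets wild type against 0 counts. These 6 refits put between 7 and 10 of the 10 members lower in mec-8 mutants. Upper-quartile normalization and DESeq2 moved the median of all genes by -0.12 and -0.19. Ordered by CPM without exon length, 4 of the 10 members changed place. The replicate numbers were not taken to pair the libraries: deviations from the genotype means correlated by 0.0535, 0.485 and -0.180 across genes in the pairs numbered 1, 2 and 3, and 2 of 6 libraries correlated best with their own number. With the replicate block 0 genes were called, and 240 had an unadjusted p under 0.05 against 470 without it. Counts were low for egl-20, cwn-2, cfz-2 and mom-5, whose highest library held 177 counts. Wild-type replicate 3, with the fewest reads on genes, 15334872, had 0 members at 0. In mec-8 replicate 3, with 22705762 reads on genes, 5 members were at 0.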

Other observations

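The members counted in each library were also set against the reads on the touch neuron genes rather than against all reads. This changed how widely each ranged over the 6 libraries. The order of members within a library cannot change, since all are divided by the same sum. Most of that sum came from mec-12, mec-17 and mec-7, with 5387, 4992 and 3295 of 14706 CPM in wild-type replicate 1. Genes of the list did not all run together: mtd-1 ran from 76.3 to 293 CPM, and mec-14 was lowest in wild-type replicate 1, at 0.820 CPM. The ranges below therefore depend mostly on a few genes. Per 1000 reads on the 10 touch neuron genes, cam-1 had 6.97, 12.1 and 19.8 reads in mec-8 replicates 1, 2 and 3, and 3.75, 6.997 and 3.75 in wild-type replicates 1, 2 and 3, a 5.29-fold range. mig-1 had 2.17, 11.9 and 26.2 in mec-8 replicates 1, 2 and 3, and 2.90, 5.69 and 6.30 in wild-type replicates 1, 2 and 3. lin-44, the Wnt of the tail hypodermis, had 0.315, 40.4 and 51.1 in mec-8 replicates 1, 2 and 3, and 0.253, 55.5 and 35.3 in wild-type replicates 1, 2 and 3, a 220-fold range. The receptor lin-17 ranged as widely as 0.797 to 29.2 in mec-8 libraries and 0.276 to 21.9 in wild-type libraries, 106-fold over all 6, whereas the ligand mom-2 ranged from 3.94 to 29.9 in mec-8 libraries and from 2.93 to 34.1 in wild-type libraries, 11.6-fold, close to the 12.04-fold of mig-1. This scaling was chosen after the levels had been seen, and none of these values was tested.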
